A study of Mus musculus with 32 samples.

Results

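A set of 9 genes that shape how fat cells answer catecholamines was followed in epididymal white adipose tissue (eWAT) of mice given corticosterone (cort). They were taken by symbol from the 47643 genes of the count table, and all 9 were found: the beta receptors Adrb1 and Adrb3, the inhibitory receptors Adra2a, Adora1 and Hcar1, the cAMP effectors Pde3b and Prkar2b, and the natriuretic peptide receptors Npr1 and Npr3. The libraries came from male C57BL/6J mice that started treatment at 10 weeks of age and were studied for 7 days. Mice drank water with 1% ethanol, either alone (Veh) or with cort dissolved in it (Cort). They ate a normal-protein diet (NPD, 20% kcal from protein) or an isocaloric high-protein diet (HPD, 60% kcal), in which protein replaced carbohydrate. Each treatment was given with each diet, so that there were 4 groups of 4 mice, and liver served as the contrast. Cort was given to the whole animal by mouth, and a piece of the whole fat depot was extracted, so fat cells were not separated from the other cells of the tissue.

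In a fat cell, catecholamines bind beta-adrenergic receptors, which act through the stimulatory G protein Gs to raise cAMP. Cyclic AMP frees the catalytic subunits of protein kinase A, which phosphorylates hormone-sensitive lipase and the droplet coat protein perilipin, and triglyceride is broken down. Alpha2-adrenergic, adenosine A1 and lactate receptors work against this through the inhibitory G protein Gi, and insulin does so by activating the phosphodiesterase PDE3B, which degrades cAMP. Natriuretic peptides drive lipolysis by a separate route through cGMP, and the clearance receptor removes them from the circulation and the tissue. Glucocorticoids act through the glucocorticoid receptor, a transcription factor present in nearly all cells, and are known both for favouring lipolysis in fat and for enlarging certain depots.

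Total counts per library lay between 9794683 and 18057936 in eWAT and between 8933307 and 17447524 in liver. Levels are given as CPM, the read count of a gene per 1000000 reads of its own library, with library sizes scaled by TMM factors within each tissue, and they are compared between libraries and not between genes. The depot's label was checked with 7 adipocyte markers, whose summed level was 26990 to 35160 CPM in eWAT and 47.6 to 106 CPM in liver, while 5 hepatocyte markers summed to 33.7 to 88.8 CPM in eWAT and 32350 to 252200 CPM in liver. Among 5 genes known as glucocorticoid receptor targets, Fkbp5 was higher with cort over both diets (log2 fold change 1.17, SE 0.27, adjusted p = 0.011, edgeR) and Sgk1 was lower (-0.98, SE 0.18, adjusted p = 0.00082). Per1 (-0.35), Tsc22d3 (0.58) and Zbtb16 (-0.63) did not pass the test. On the NPD alone 1 of the 5 targets was called higher and 0 lower. On the HPD alone 0 were called higher and 2 lower, so no target was called higher on that diet. In Veh HPD, Fkbp5 was at 144 and 153 CPM in replicates 2 and 4 and at 41.7 and 45.6 CPM in replicates 1 and 3, so that 2 vehicle libraries reached the range of the Cort HPD libraries (122 to 176 CPM). Veh HPD replicate 4 also stood apart in several results below. Cort HPD replicate 4 held 7398 CPM of 7 epididymis markers, against 4.74 CPM or less in each other eWAT library. Both libraries were kept, and some results of the members are also given without them. The 5 target genes and the marker sums are given only with them.

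Promoters are shown for 4 of the 5 members called for the mean cort effect, because the glucocorticoid receptor binds DNA at a known motif, a pair of short arms of the letters AGAACA and TGTTCT set 3 bases apart. RefSeq windows of 250 bases before a start site (build GRCm38.p6) were matched for 7 of the 9 genes, as 9 windows, all but Adrb3 and Pde3b. Adora1 and Prkar2b have 2 windows each, of which 1 is shown. They are written 5′ to 3′ on the strand of the gene, and capitals mark an arm.
Adora1, chr1:134234857-134235106, minus strand: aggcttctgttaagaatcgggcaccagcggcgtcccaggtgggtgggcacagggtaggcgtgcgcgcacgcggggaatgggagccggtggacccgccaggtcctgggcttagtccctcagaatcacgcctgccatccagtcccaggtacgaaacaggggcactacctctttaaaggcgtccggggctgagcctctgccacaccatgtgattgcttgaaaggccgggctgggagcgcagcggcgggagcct
Hcar1, chr5:123880004-123880253, minus strand: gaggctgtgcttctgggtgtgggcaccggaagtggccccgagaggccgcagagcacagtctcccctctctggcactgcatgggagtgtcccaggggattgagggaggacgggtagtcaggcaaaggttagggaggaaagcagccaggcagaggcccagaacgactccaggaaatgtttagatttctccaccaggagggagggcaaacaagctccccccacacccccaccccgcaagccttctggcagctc
Prkar2b, chr12:32061278-32061527, minus strand: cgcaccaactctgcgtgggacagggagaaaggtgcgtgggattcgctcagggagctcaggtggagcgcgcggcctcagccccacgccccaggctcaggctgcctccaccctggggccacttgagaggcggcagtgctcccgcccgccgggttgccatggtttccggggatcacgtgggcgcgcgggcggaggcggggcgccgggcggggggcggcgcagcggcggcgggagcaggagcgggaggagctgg
Npr3, chr15:11907372-11907621, minus strand: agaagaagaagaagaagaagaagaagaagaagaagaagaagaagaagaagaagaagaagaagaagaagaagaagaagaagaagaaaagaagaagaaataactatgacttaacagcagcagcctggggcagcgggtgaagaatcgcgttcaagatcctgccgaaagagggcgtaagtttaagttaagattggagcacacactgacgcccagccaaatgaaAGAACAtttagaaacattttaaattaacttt
The arm found in Npr3 lay 31 bases before the RefSeq start site, in the orientation AGAACA, and no GENCODE transcript of Npr3 starts at that site. It was the 1 match in the 9 windows to an arm in either orientation, which 16.1% of all 32851 promoter windows held. None of the 9 windows held the paired element, which 0.00913% of all windows held, or the cAMP response element TGACGTCA, which 1.55% held. An arm is part of the paired element, so both searches overlap. These matches describe letters in the windows shown and not binding.

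Cort raised Adora1 and Prkar2b and lowered Hcar1 on each diet. Over both diets together, 5 of 9 members passed the test (edgeR, Benjamini-Hochberg adjusted p under 0.05 across 15187 genes): Adora1, Prkar2b and Npr3 were higher with cort, and Hcar1 and Adrb3 were lower. Adrb1, Adra2a, Pde3b and Npr1 did not pass. Across all tested genes 15.5% passed in this comparison, 8.13% higher and 7.41% lower. On the NPD 3 of 9 members passed, against 7.98% of all genes. On the HPD the same 3 genes passed, against 6.09% of all genes. The 9 members all passed the filter on low counts. Without Veh HPD replicate 4 and Cort HPD replicate 4, 5 members passed over both diets and 4 on each diet, Adrb3 being the addition. The split of all called genes depended on the scaling, with 1235 higher and 1125 lower under TMM factors and 916 higher and 1459 lower with library totals alone, which moved the median of all genes from -0.02 to -0.08 on the log2 scale. In RNA of whole tissue, fewer cells of a type and less RNA per cell cannot be told apart.

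**Figure D1:**
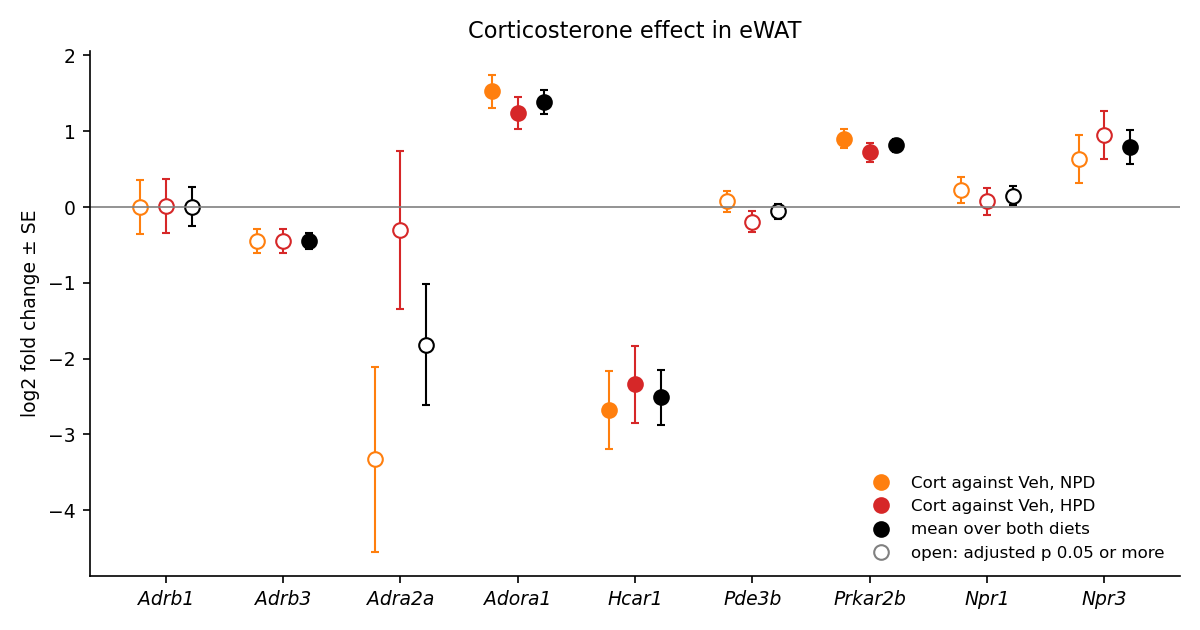
Log2 fold change (± SE, 4 mice per group) of Cort against Veh in eWAT for each of the 9 genes, on the NPD, on the HPD and as the mean over both diets, with filled points where the edgeR adjusted p was under 0.05. Adora1 (1.39), Prkar2b (0.81) and Npr3 (0.80) lie above 0 and Hcar1 (-2.51) and Adrb3 (-0.45) below it for the mean over diets, while Adra2a has the widest bars.

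Adrb3 (ENSMUSG00000031489, chr8:27225776-27250616, GRCm38) encodes the beta3-adrenergic receptor, the beta receptor most typical of rodent adipocytes. Its level in the 4 Veh NPD libraries was 752, 674, 728 and 561 CPM, and in the 4 Cort NPD libraries it was 534, 463, 569 and 430 CPM. On the HPD it was 1114, 722, 845 and 601 CPM with Veh and 683, 611, 637 and 465 CPM with Cort. On each diet the highest Cort libraries reached the lowest Veh library, so the groups overlapped. The log2 fold change was -0.44 (SE 0.16, adjusted p = 0.087, edgeR) with the NPD, and with the HPD it was -0.45 (SE 0.16, adjusted p = 0.092), neither past the threshold. Their mean, with all 16 libraries behind it, was -0.45 (SE 0.11, adjusted p = 0.0058), a level 1.36-fold lower with cort. By diet, the effect passed in 6 of 24 alternatives on the NPD and in 3 of 24 on the HPD. Without Veh HPD replicate 4 it was -0.44 (adjusted p = 0.038, edgeR) on the NPD and -0.58 (adjusted p = 0.013) on the HPD. An antisense gene, Gm45470, overlaps Adrb3 on the opposite strand, and the strand setting of the counting is not given in the sources used here.

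Adrb1 (ENSMUSG00000035283, chr19:56722199-56733113) encodes the beta1-adrenergic receptor, which couples to Gs as well. It was at 8.59 ± 3.84 CPM (SD, n = 4) in Veh NPD, 10.0 ± 7.19 in Veh HPD, 8.60 ± 0.812 in Cort NPD and 10.1 ± 1.78 in Cort HPD. The group means were close and the vehicle mice were the more spread, with 1 Veh HPD library at 20.6 CPM. The mean cort effect was 0.01 on the log2 scale (SE 0.25, adjusted p = 0.99, edgeR), and its sign depended on the settings.

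Adora1 (ENSMUSG00000042429, chr1:134199223-134235431) encodes the adenosine A1 receptor, through which adenosine released in the tissue restrains lipolysis. It was at 55.4, 53.6, 51.4 and 51.9 CPM in Veh NPD and at 164, 128, 174 and 147 CPM in Cort NPD. On the HPD, 3 Veh libraries were at 41.9, 48.6 and 52.5 CPM and replicate 4 was at 109.8 CPM, while Cort libraries were at 142, 170.0, 149.8 and 136 CPM. Every Cort library was above every Veh library, and the 4 mice of Veh NPD lay close together, between 51.4 and 55.4 CPM. The log2 fold change was 1.53 (SE 0.22, adjusted p = 0.00017, edgeR) on the NPD, 1.24 (SE 0.22, adjusted p = 0.0014) on the HPD and 1.39 (SE 0.15, adjusted p = 3.5e-06) over both, a 2.61-fold rise. Without Veh HPD replicate 4 the change on the HPD was 1.65 (adjusted p = 8.7e-10). The last part of Adora1 overlaps the gene Mybph on the opposite strand, which had 0 counts in the 16 eWAT libraries.

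Hcar1 (ENSMUSG00000049241, chr5:123876736-123880020) encodes the lactate receptor of adipocytes, which lowers cAMP when lactate rises after a meal. It was at 89.0, 97.3, 109 and 38.4 CPM in Veh NPD and fell to 23.1, 8.94, 11.2 and 8.55 CPM in Cort NPD. On the HPD it was at 152, 48.3, 84.6 and 40.7 CPM with Veh and at 10.1, 24.7, 17.4 and 12.4 CPM with Cort. No Cort library reached the lowest Veh library, although the vehicle mice differed widely among themselves. The log2 fold change was -2.68 (SE 0.52, adjusted p = 0.0066, edgeR) on the NPD, -2.34 (SE 0.51, adjusted p = 0.018) on the HPD and -2.51 (SE 0.37, adjusted p = 0.00042) over both, a 5.70-fold fall. On the HPD the call was lost with only the 2 groups in the fit (adjusted p = 0.058) and when Veh HPD replicate 1 (adjusted p = 0.051), Cort HPD replicate 1 (adjusted p = 0.059) or Cort HPD replicate 4 (adjusted p = 0.054) was left out. Hcar1 has a close paralog, Hcar2, so that reads of both could in part be shared.

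Adra2a (ENSMUSG00000033717, chr19:54044151-54048982) encodes the alpha2A-adrenergic receptor, by which catecholamines can also restrain lipolysis. It was scarce in mouse eWAT, with counts of 10, 5, 17 and 29 in Veh NPD and 21, 29, 12 and 28 in Veh HPD. In Cort NPD the counts were 1, 1, 3 and 0, below every Veh library, and in Cort HPD they were 11, 0, 43 and 9. The log2 fold change on the NPD was -3.33 (SE 1.22) with an adjusted p of 0.099 by edgeR, which missed the threshold, and 0.026 by DESeq2. On the HPD it was -0.30 (SE 1.04, adjusted p = 0.92), and over both diets -1.82 (SE 0.79, adjusted p = 0.13). With so few reads the difference between the diets was not resolved: the interaction was 3.03 (SE 1.57, adjusted p = 0.96).

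On the NPD 4 members (Adra2a, Adora1, Hcar1 and Prkar2b) had Cort and Veh groups that did not overlap in CPM, and 14.9% of all tested genes did so. On the HPD 3 members (Adora1, Hcar1 and Prkar2b) did, against 11.3% of all tested genes.

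**Figure D2:**
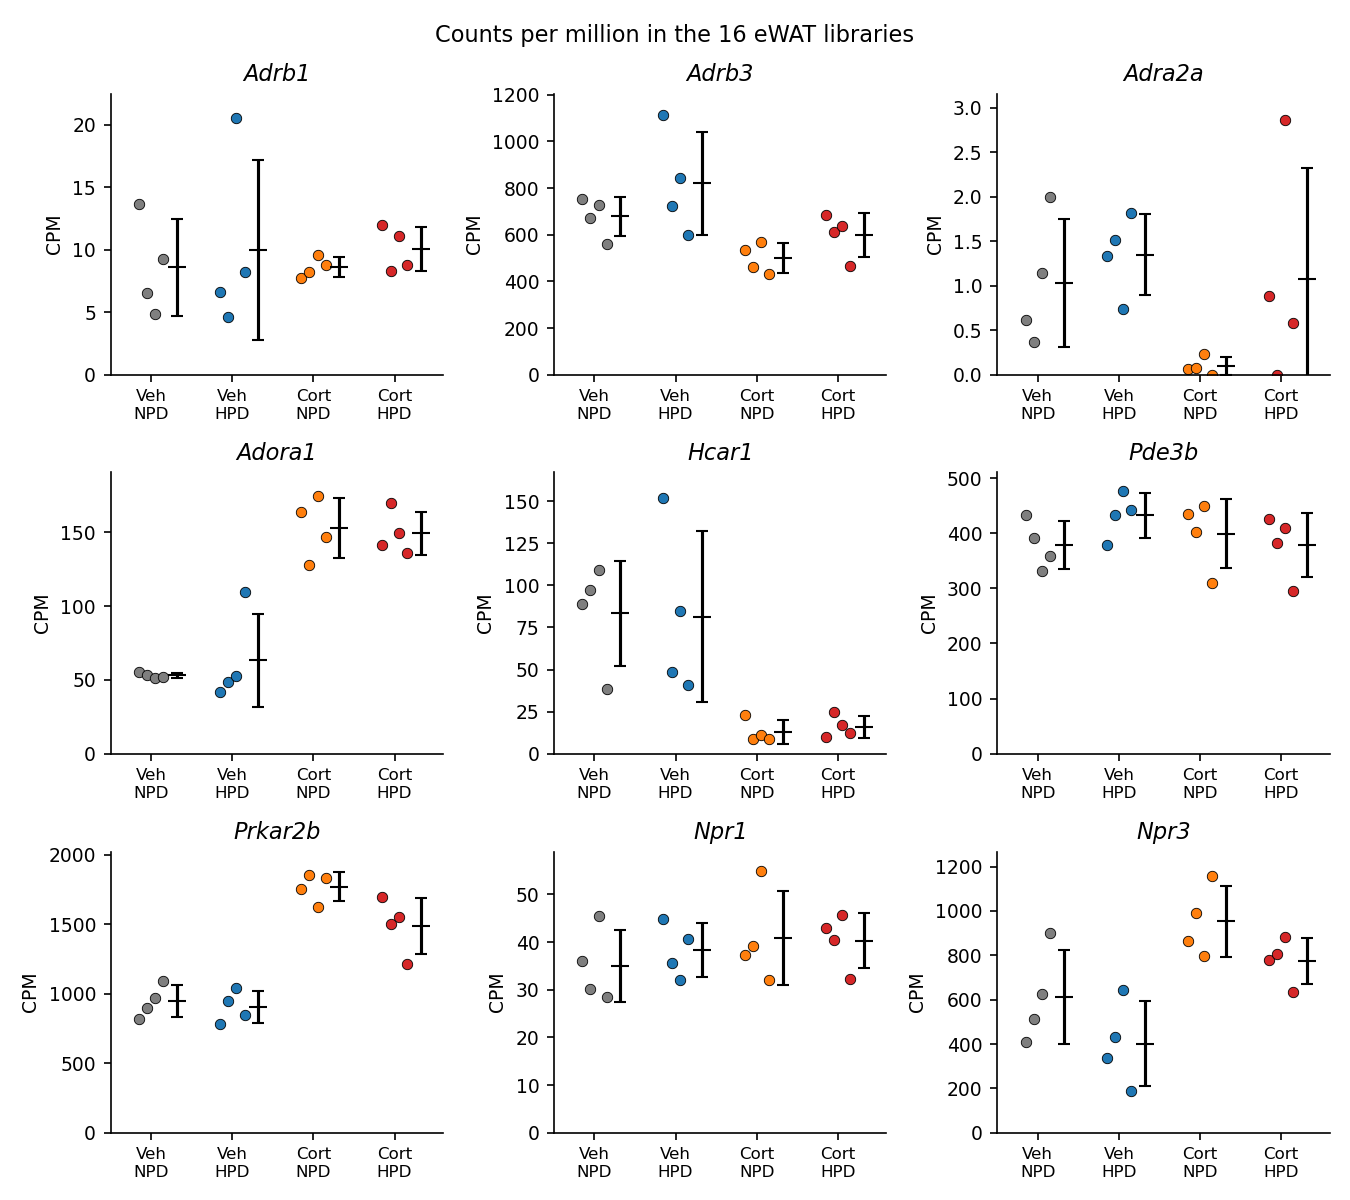
Level of the 9 genes in CPM (vertical axis, linear from 0) in each of the 16 eWAT libraries, 4 per group, with the group mean and SD beside the points. The Cort points of Adora1 and Prkar2b lie above all Veh points and those of Hcar1 below them, and 1 Veh HPD point of Adora1, at 109.8 CPM, stands between the groups.

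Prkar2b (ENSMUSG00000002997, chr12:31958476-32061296) encodes RIIβ, the regulatory subunit of protein kinase A that prevails in adipose tissue and holds the catalytic subunits inactive until cAMP binds. It was at 819.9, 901, 969 and 1094 CPM in Veh NPD and at 1758, 1856, 1628 and 1837 CPM in Cort NPD. On the HPD it was at 780.0, 949, 1041 and 848 CPM with Veh and at 1696, 1503, 1550 and 1214 CPM with Cort. All Cort libraries lay above all Veh libraries, Veh HPD replicate 4 included. The log2 fold change was 0.90 (SE 0.13, adjusted p = 2.5e-05, edgeR) on the NPD, 0.72 (SE 0.13, adjusted p = 0.00055) on the HPD and 0.81 (SE 0.09, adjusted p = 2.6e-07) over both, a 1.76-fold rise. It had the smallest adjusted p of the 9 members and kept its call under each of the alternatives run.

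Pde3b (ENSMUSG00000030671, chr7:114415281-114539251) encodes the phosphodiesterase that insulin activates to lower cAMP in adipocytes. Its level was 379 ± 43.8 CPM in Veh NPD, 433 ± 40.4 in Veh HPD, 399 ± 62.9 in Cort NPD and 379 ± 58.1 in Cort HPD (SD, n = 4). The groups overlapped throughout, from 296 to 477 CPM over the 16 libraries. The mean cort effect was -0.06 (SE 0.10, adjusted p = 0.75, edgeR).

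Npr3 (ENSMUSG00000022206, chr15:11839896-11907287) encodes the clearance receptor, which takes up natriuretic peptides without a cyclase of its own. It was at 411, 514, 626 and 898 CPM in Veh NPD and at 865, 988, 798 and 1159 CPM in Cort NPD. On the HPD it was at 335, 433, 645 and 188 CPM with Veh and at 779, 804, 881 and 636 CPM with Cort. On each diet 1 Veh library reached into the Cort range, and the lowest of all was Veh HPD replicate 4. The log2 fold change was 0.64 (SE 0.31, adjusted p = 0.28, edgeR) with the NPD, with the HPD it was 0.95 (SE 0.32, adjusted p = 0.11), and their mean was 0.80 (SE 0.22, adjusted p = 0.027), a 1.74-fold higher level. The effect on the HPD passed with DESeq2 (adjusted p = 0.039), with limma voom (0.0091) and without Veh HPD replicate 3 (1.28, 0.019 by edgeR). The call of the mean was lost with library totals alone (adjusted p = 0.058), with no filter on low counts (0.050) and when any of 7 single libraries was left out (replicates 1, 2 or 3 of Veh NPD, replicate 1 of Veh HPD, replicates 2 or 4 of Cort NPD, replicate 3 of Cort HPD), with adjusted p of 0.050 to 0.064. A noncoding gene, Gm5144, starts on the opposite strand within Npr3.

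Npr1 (ENSMUSG00000027931, chr3:90450591-90465866) encodes the guanylyl cyclase receptor that turns atrial natriuretic peptide into a cGMP signal. It was at 35.0 ± 7.64 CPM in Veh NPD, 38.3 ± 5.69 in Veh HPD, 40.9 ± 9.76 in Cort NPD and 40.3 ± 5.83 in Cort HPD (SD, n = 4). The ranges overlapped, and the mean cort effect was 0.15 (SE 0.12, adjusted p = 0.47, edgeR).

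Diet did not pass the test for any member. With Veh, 0 of 9 members differed between HPD and NPD by edgeR (0 also at an unadjusted p under 0.05, and 0 by DESeq2 and by limma voom), against 0.0593% of all genes. With Cort, 0 of 9 did (1 at an unadjusted p under 0.05, and 0 by DESeq2 and by limma voom), against 0.487% of all genes. That 1 was Adra2a, at 1.08 ± 1.24 CPM in Cort HPD and 0.09 ± 0.10 in Cort NPD (log2 difference 3.41, SE 1.22, adjusted p = 0.31, edgeR). For the interaction of diet and cort 0 of 9 members passed (0 at an unadjusted p under 0.05, and 0 by DESeq2 and by limma voom), against 0.0132% of all genes. For Adora1 the cort effect on the HPD less that on the NPD was -0.29 (SE 0.30, adjusted p = 0.99), and 0.12 without Veh HPD replicate 4. A missed threshold does not show that the diets act alike, and the SE of the interaction lay between 0.18 for Prkar2b and 1.57 for Adra2a.

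Some markers of the other cells of the depot moved with cort alongside the members. The summed level of the 7 adipocyte markers overlapped between the groups, with medians of 30080 CPM in Veh NPD, 30640 in Veh HPD, 32980 in Cort NPD and 30140 in Cort HPD, although within the list Adipoq was lower (-0.69) and Lep, Cidec and Lipe were higher with cort (1.48, 0.32 and 0.26). The 7 stromal progenitor markers summed to 1793 to 2929 CPM in Veh NPD, 857 to 2094 in Veh HPD, 937 to 1176 in Cort NPD and 923 to 1259 in Cort HPD, and 5 of them were lower with cort. The lowest value of all 16 libraries was that of Veh HPD replicate 4. Falls were also called among smooth muscle and pericyte (3 of 4), endothelial (2 of 5), mesothelial (1 of 5) and macrophage markers (2 of 5, with Cd68 higher). Of all tested genes 7.41% were lower. Median macrophage sums were 860 CPM in Veh NPD and 778 in Cort NPD, but 790 in Veh HPD and 912 in Cort HPD. Median mesothelial sums were 129 and 131 CPM on the NPD and 135 and 104 CPM on the HPD. In skeletal muscle 1 of 3 tested markers was lower, and in brown or beige fat 1 of 3 tested (Ucp1 not passing the filter). The beige marker Cidea was also the 1 gene of all lists called between diets, lower in Cort HPD than in Cort NPD (-2.90, adjusted p = 0.024, edgeR). Of the 7 epididymis markers 1 passed the filter. It was not called for the mean cort effect, and on the HPD it was called higher (log2 fold change 12.5), the group that holds Cort HPD replicate 4. Of 4 tested hepatocyte markers 0 were called for the mean cort effect by edgeR. The part of these shifts in the members' changes was not tested.

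**Figure D3:**
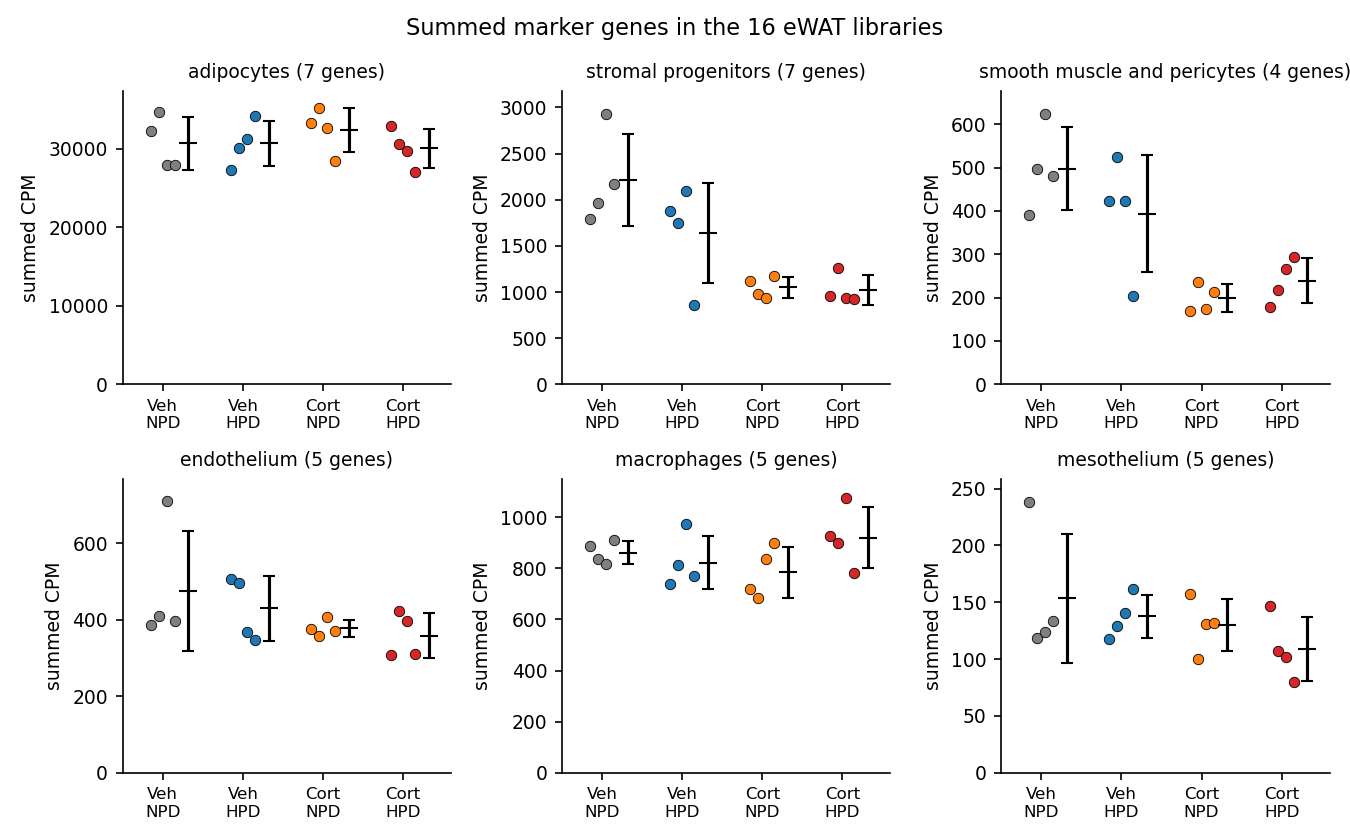
Summed CPM of 6 marker lists (vertical axes, linear from 0) in each of the 16 eWAT libraries, 4 per group, with the group mean and SD beside the points. Adipocyte sums overlap in all 4 groups (26990 to 35160 CPM), while stromal progenitor sums are lower in the Cort groups and in Veh HPD replicate 4 (857 CPM).

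The rest of the pathway was read from 11 lists of 127 genes in all, of which 108 passed the filter. Over both diets 18 of them were called (7 higher and 11 lower with cort), which is 16.7% of the tested list genes against 15.5% of all genes, a share near the background. The median log2 fold change of these 108 genes was -0.13, against -0.02 for all tested genes. On the NPD 14 were called (13% of the tested list genes against 7.98% of all genes), further above the background than over both diets. On the HPD 9 were called (8.33% against 6.09%), and 0 for diet or interaction by edgeR.

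Among other receptors, both calls of the Gi-coupled list (2 of 8 tested, 25%, against 15.5% of all genes) were falls. Hcar2, the receptor of hydroxybutyrate and niacin next to Hcar1, had medians of 16.7 and 19.0 CPM in Veh NPD and Veh HPD and 5.58 and 7.01 CPM in Cort NPD and Cort HPD (log2 fold change over both diets -1.55, adjusted p = 0.00011, edgeR). Ffar2, a receptor for short-chain fatty acids, fell from medians of 123 and 111 CPM to 56.9 and 50.4 CPM (-1.13, adjusted p = 0.0013). Of 11 tested Gs-coupled receptors 1 was called, the prostaglandin receptor Ptger4, which was lower (-0.93, adjusted p = 0.0066). Of the other adrenergic receptors 3 of 6 passed the filter and 0 were called by edgeR.

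Among G proteins and their regulators 2 of 15 genes were called (13.3%), and among the adenylyl cyclases 3 of 8 tested (37.5%). Of all genes 15.5% were called, and the 5 calls here were falls. By diet alone, the first list had 2 calls on the NPD and 1 on the HPD, and the cyclases had 0 on each. Of 15 G proteins, receptor kinases, arrestins and RGS proteins, Rgs2, which speeds the shut-off of G proteins, fell from medians of 61.0 and 91.5 CPM to 27.5 and 27.9 CPM (-1.52, adjusted p = 5.2e-06, edgeR), and Rgs4 fell by 0.78 (adjusted p = 0.010). Of 8 tested adenylyl cyclases, the enzymes that make cAMP, 3 were lower: Adcy3 (-0.61, adjusted p = 0.034), Adcy5 (-1.05, adjusted p = 0.039) and Adcy7 (-0.98, adjusted p = 0.0069). The call of Adcy3 was lost when any of 10 single libraries was left out (adjusted p up to 0.11), and that of Adcy5 when any of 13 was (up to 0.079), controls and Cort libraries alike. Of 16 protein kinase A subunits, inhibitors and anchors 1 was called, the anchoring protein gene Akap11 (0.43, adjusted p = 0.0036), and Prkar2b is not on that list. Of 15 tested phosphodiesterases other than Pde3b 1 was called, Pde7a, which was higher (0.70, adjusted p = 0.00028).

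Of the natriuretic peptide and cGMP list 5 of 11 genes passed the filter and 1 was called: Mme, for neprilysin, the protease that degrades natriuretic peptides, was lower (-1.01, adjusted p = 9.3e-05, edgeR). Its lowest Veh value, 25.4 CPM, was that of Veh HPD replicate 4, the library with the lowest stromal sum. In the insulin arm, 1 of 10 genes was called, the kinase subunit gene Pik3cb (0.62, adjusted p = 0.00079).

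Of the lipolytic machinery downstream of protein kinase A, 5 of 9 genes were called over both diets (55.6%, against 15.5% of all genes). On the NPD alone 5 were called (4 higher and 1 lower), against 7.98% of all genes. On the HPD alone 2 were called (1 higher and 1 lower), against 6.09%. G0s2, the inhibitor of adipose triglyceride lipase, had medians of 304 and 219 CPM in Veh NPD and Veh HPD and 737 and 706 CPM in Cort NPD and Cort HPD (1.43, adjusted p = 1.1e-08, edgeR). The lipase activator Abhd5 (0.37, adjusted p = 0.0024), the droplet protein gene Cidec (0.32, adjusted p = 0.025) and Lipe, for hormone-sensitive lipase (0.26, adjusted p = 0.042), were higher by less. The call of Lipe was lost when any of 12 single libraries was left out (adjusted p up to 0.097) and that of Cidec when any of 7 was (up to 0.072). Aqp7, the channel by which glycerol leaves the cell, was lower (-0.96, adjusted p = 1.7e-08). Pnpla2, for adipose triglyceride lipase itself, was not called. Of 8 tested genes that respond to cAMP 1 was called, Irf4, which was lower (-0.87, adjusted p = 0.013, and 0.050 without Veh NPD replicate 2).

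**Figure D4:**
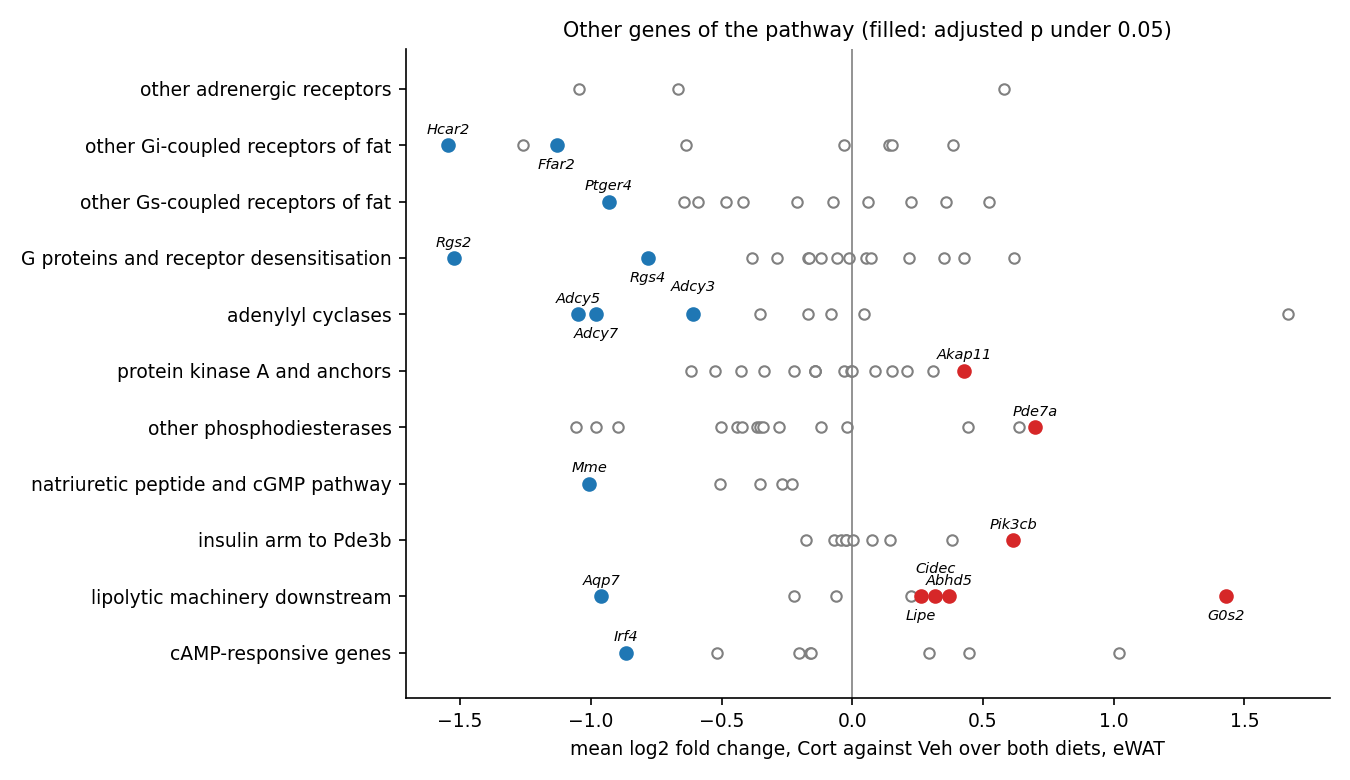
Mean log2 fold change of Cort against Veh over both diets in eWAT (horizontal axis) for the 108 tested genes of 11 other lists of the pathway (rows), 1 point per gene, filled and named where the edgeR adjusted p was under 0.05. The 18 filled points are 7 rises, led by G0s2 (1.43), and 11 falls, led by Hcar2 (-1.55) and Rgs2 (-1.52).

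Liver gave a contrast in level. In Veh NPD 8 of 9 members were higher in eWAT than in liver (edgeR, adjusted p under 0.05), where 62.7% of all 16482 tested genes differed between the tissues and 33.7% were higher in eWAT. Adra2a and Hcar1, among these 8, did not pass the filter in liver alone. They entered this fit through their eWAT counts and could only come out higher in eWAT. Hcar1 had 4926 counts in the 4 eWAT libraries and 1 count in the 4 liver libraries, a ratio of 3754 after division by the library totals (95% interval 674 to 148300, exact, counting error only), and 3 counts in all 16 liver libraries. Adra2a had 61 counts against 0, at least 15.5-fold higher in eWAT by a floor of 3 counts over the group and library totals. Adrb3 was at 2.59 ± 1.21 CPM in liver, Prkar2b at 0.85 ± 0.46 and Npr3 at 0.71 ± 0.25 (SD, n = 4). Their log2 differences were 7.00 (SE 0.27), 9.07 (SE 0.37) and 8.72 (SE 0.46). These and the differences below are from the fit with TMM factors, so they are not on the scale of the ratios by library totals. Adrb1 (1.75, SE 0.47), Npr1 (2.05, SE 0.24) and Pde3b (1.97, SE 0.14) differed less. Adora1 was the exception at 21.6 ± 8.93 CPM in liver and 53.1 ± 1.83 CPM in eWAT, with a difference of 0.28 (SE 0.26, adjusted p = 0.35) that passed with library totals alone (1.34, adjusted p = 1.1e-05). That change of scaling moved the median of all genes in this comparison from 0.26 to 1.28, and the split of all called genes from 5552 higher and 4774 lower in eWAT to 9706 and 2243, so a level difference between tissues is relative to the scaling.

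**Figure D5:**
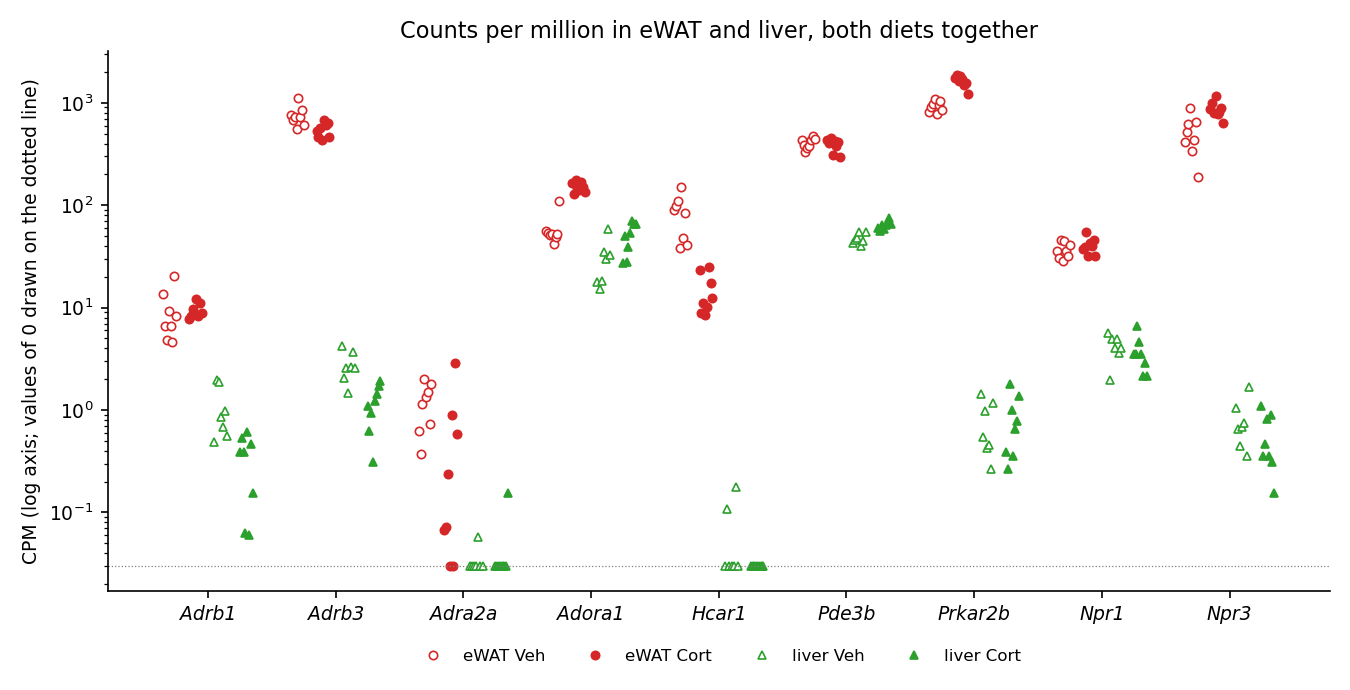
CPM of the 9 genes on a log axis in eWAT (circles, 16 libraries) and liver (triangles, 15 libraries), open for Veh and filled for Cort with both diets together, and values of 0 on the dotted line. Adrb3, Hcar1, Prkar2b and Npr3 differ between tissues far more than between treatments. Adora1 in liver reaches into the Veh range of eWAT both with Veh (up to 58.05 CPM) and with Cort (27.5 to 70.7 CPM). CPM were scaled within each tissue.

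In liver 7 of 9 members passed the filter, all but Adra2a and Hcar1, and 4 of them were called for the mean cort effect, against 20.4% of all 12391 tested genes. Of those, 1330 were higher and 1199 lower under TMM factors, and 748 higher and 1864 lower with library totals alone, which moved the median of all genes from -0.01 to -0.14. Adora1 was at 17.9, 15.1, 18.4 and 34.8 CPM in Veh NPD, at 27.5, 49.8, 28.0 and 39.0 CPM in Cort NPD, at 30.1, 58.1 and 32.4 CPM in Veh HPD and at 53.7, 70.7, 65.2 and 65.9 CPM in Cort HPD (0.70, SE 0.20, adjusted p = 0.017, edgeR). This call was lost without liver Veh HPD replicate 1 (adjusted p = 0.057) or 3 (0.051). Pde3b went from 48.0 ± 5.06 to 59.5 ± 3.05 CPM on the NPD (SD, n = 4) and from 46.5 ± 7.39 (n = 3) to 67.9 ± 4.73 CPM on the HPD (0.42, SE 0.10, adjusted p = 0.0036, and 0.055 with library totals alone). Adrb3 was lower with cort (-1.37, SE 0.28, adjusted p = 0.0011) and so was Adrb1 (-1.57, SE 0.48, adjusted p = 0.023, and 0.062 without liver Veh HPD replicate 2), both from levels of few reads: 118 and 55 counts in the 4 Veh NPD libraries. By diet, 1 member was called on the NPD (Adrb3, -1.83), against 12.6% of all genes, and 1 on the HPD (Pde3b, 0.54), against 9.89%. The latter was lost with library totals alone (adjusted p = 0.22), with only the 2 groups in the fit (0.076) and without Cort HPD replicate 3 (adjusted p = 0.056), Veh HPD replicate 1 (0.13) or Veh HPD replicate 2 (0.069). The Veh HPD group of the liver held 3 libraries, since the study left out replicate 4 as an outlier.

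The cort response differed between the tissues for 2 of the 7 members that passed the filter in liver (edgeR, both tissues in 1 fit), against 7.76% of all genes (639 higher and 640 lower, or 770 and 491 with library totals alone). Adra2a and Hcar1 had too few liver counts for a response to be compared. All comparisons between tissues treated the libraries as independent. Whether eWAT and liver came from the same mice is not given in the sources used here. For Adrb3 the log2 fold change in eWAT less that in liver was 0.93 (SE 0.26, adjusted p = 0.021), the fall being smaller in eWAT. For Pde3b it was -0.48 (SE 0.14, adjusted p = 0.026). Both calls depended on single liver libraries: without liver Veh HPD replicate 2 the adjusted p was 0.054 for Adrb3 and 0.052 for Pde3b, and with all 16 liver libraries it was 0.24 for Adrb3. With limma voom it was 0.28 for Adrb3, and with library totals alone 0.072 for Pde3b. The call of Adrb3 was also lost without liver Cort NPD replicate 4 (0.055) or Veh NPD replicate 1 (0.061), and that of Pde3b without Veh HPD replicate 1 (0.065). For Adora1 the difference was 0.69 (SE 0.26, adjusted p = 0.12), and 0.88 (adjusted p = 0.0076) without eWAT Veh HPD replicate 4.

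The 36 pairs of members were compared across the 16 eWAT libraries, which share groups, depth and cell make-up. Pearson's r of log2 CPM was -0.89 for Hcar1 and Prkar2b and -0.87 for Adora1 and Hcar1, and -0.33 and -0.25 after the group means were taken out. Adrb3 and Hcar1 (0.80, and 0.72 within groups) and Prkar2b and Npr3 (0.82, and 0.74 within groups) were also correlated within groups. Adora1 and Npr3 had 0.47 over all libraries and -0.59 within groups, and Adrb3 and Adora1 had -0.69 and -0.42. The 3 genes most like each member over the 16 libraries were, for Adora1, Gsta3 (0.971), Pxmp2 (0.971) and Fmo1 (0.970), for Hcar1, Igf1 (0.956), Cxcl9 (0.948) and C2 (0.946), and for Prkar2b, Fhl1 (0.967), Dmpk (0.965) and Lox (0.959). For Npr3 they were Ubap2 (0.951), Trp53inp2 (0.947) and Cavin3 (0.947), and for Adrb3 Trim30a (0.895), Klf4 (0.888) and Atad2b (0.887). Likeness was weaker for the members with no call, at 0.831 to 0.877 for Adra2a (Prkd3, Rassf1 and Mier1), 0.796 to 0.840 for Npr1 (Slc38a6, Rnf20 and Zfyve26), 0.790 to 0.811 for Pde3b (Gm44751, Nudt12 and Sctr) and 0.725 to 0.881 for Adrb1 (Gm37080, 4932422M17Rik and Gm4076). These values describe 16 libraries of 4 groups and carry no test.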

How the data were processed

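RNA of eWAT and liver was sequenced by the authors with a kit that reads each transcript near its 3′ end (QuantSeq), and the values they deposited are raw read counts for Ensembl genes, with a column for each library. The submitters' processing notes name the build GRCm38 (mm10), R 4.0.3 and limma, and the counting program is not given in the sources used here. Groups were taken from the sample labels, and 0 columns were unused. Symbols and positions came from GENCODE for GRCm38, with 419 genes left without a symbol.

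The tests ran in edgeR 4.0.16 under R 4.3.3: filterByExpr (minimum count 10, minimum total 15), TMM factors and the quasi-likelihood test, with 1 mean per group, each tissue on its own and both tissues together for comparisons between them. Genes were called at a Benjamini-Hochberg adjusted p under 0.05 across all tested genes. Liver used 15 libraries, since the study left out Veh HPD replicate 4. CPM were divided by library sizes scaled with TMM factors within each tissue, and log2 CPM for correlations a prior count of 2. The named genes were the 9 members, the called genes of each other list for the mean cort effect (up to 6 a list), list genes called for diet, the 3 genes most correlated with each member, and glucocorticoid target genes as a check. The 9 members and all lists (193 of 194 entries matched) were chosen with earlier results of these data known. The alternatives were RLE factors, library totals, DESeq2 1.42.0, limma 3.58.1 (voom), no filter, only the 2 groups compared, a block for the replicate number, all 16 liver libraries and each library left out. The removal of both libraries that stood apart was chosen after seeing the data.

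Depth limits the genes with few counts, such as Adra2a. For the others the spread between replicate libraries set the precision, in which the mouse and the handling of its sample cannot be told apart. Replicates differed by a mean chi-squared of 14.1 or more per gene, where counting alone gives 1, and 0 of 48 pairs were identical. Same-numbered samples of different groups did not deviate together (in eWAT 24 pairs with correlations from -0.115 to 0.253, of which 1 was over 0.1, and in liver 21 pairs, of which 3 were). The scripts were tested on simulated data.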

Additional observations from a re-analysis of the deposited data

Results flagged for a closer look

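In eWAT, Adora1 in Veh HPD replicate 4 was at 109.8 CPM, apart from the other 3 libraries of its group at 41.9 to 52.5 CPM (Dixon's ratio 0.843, above the 95% critical value for 4 samples). In the same library the stromal marker sum was 857 CPM, the lowest of the 16 eWAT libraries, Npr3 was the lowest at 188 CPM and Fkbp5 was at 153 CPM, while Prkar2b (848 CPM) lay within its group. In liver, Adora1 in Veh NPD replicate 4 was at 34.8 CPM and the other 3 libraries were at 15.1 to 18.4 CPM (Dixon's ratio 0.836). Chance alone flags about 1 in 20 groups, and 2 of 54 groups tested were flagged, both for Adora1.

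The cort response differed between eWAT and liver by a test of the difference itself for Adrb3 (log2 difference 0.93, a smaller fall in eWAT) and for Pde3b (-0.48, with a rise in liver and none called in eWAT). Of 38 alternatives, the call of Adrb3 was lost in 5 and that of Pde3b in 3.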

How the results depend on the processing

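In eWAT the number of members called was 5 for the mean cort effect (4 to 5 over the alternatives), 3 on the NPD (3 to 4) and 3 on the HPD (2 to 4), and 0 for diet and for the interaction under each alternative. By edgeR, DESeq2 and limma voom in turn, all genes called numbered 9, 126 and 24 for diet with Veh, 74, 195 and 73 for diet with Cort, and 2, 14 and 0 for the interaction. Of the other pathway genes 18 were called (14 to 24 with 1 library left out, 25 at most), and 8 members differed in level between tissues (8 to 9). Adra2a and Hcar1 were among these 8 but passed the filter through eWAT only. In liver, 1 member was called on the HPD, 0 with library totals alone or with only the 2 groups compared, and 0 to 1 with 1 library left out. On the liver NPD 1 was called, 3 by DESeq2, 2 with library totals alone and 1 to 2 with 1 library left out. For the tissue difference 2 were called, 4 by DESeq2, 1 by limma voom and 0 to 4 with 1 library left out. With the replicate number as a block, the liver NPD count was 2 and eWAT counts were 4 on each diet and 5 for the mean, and the labels' numbers do not pair the mice. Single values turned in sign for 3 results that passed no test: the Adora1 interaction (-0.29, 0.16 without both doubted libraries, -0.44 to 0.12 with 1 left out), Adra2a on the HPD (-0.30, 0.081, -1.43 to 0.10) and the mean Adrb1 effect (0.01, -0.00468, -0.0505 with library totals alone, -0.12 to 0.32). The causes of these changes were not tested. Few counts limit Adra2a and, in liver, Hcar1, Adrb1, Adrb3, Prkar2b and Npr3.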
